A study of Mus musculus with 10 samples.

Results

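This account concerns 10 genes that flank *Zbtb16* on mouse chromosome 9, out of the 22000 genes counted in KO and WT mice, whose prefrontal cortex (PFC) was sampled. The genes are *Nxpe4*, *Ttc12*, *Zw10*, *Dlat*, *Bco2*, *Usp28*, *Rexo2*, *Phldb1*, *Ncam1* and *Cadm1*. They were listed for their place near *Zbtb16*, with earlier results of the same KO and WT comparison known, so their KO and WT values are a description and support nothing by themselves. All 10 genes passed the filter on low counts, and 9 of them start within 2 Mb of the start of *Zbtb16*. *Phldb1* lies farther away, at 4.10 Mb.

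RNA-seq was performed on 1 library per mouse from 5 WT and 5 KO mice, all 7 weeks old and labelled male. KO mice were homozygous for the *lu* (luxoid) point mutation of *Zbtb16* from the strain B6.C3-*Zbtb16*lu/J, while WT mice carried the normal allele. The strain of the individual WT mice is not in the labels, and littermates are described for the mice of the behavioral tests. No treatment is named in the labels.

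*Zbtb16* encodes a transcription factor with a BTB domain and zinc fingers, which represses genes during stem cell maintenance and differentiation. The *lu* allele arose on another strain background and was moved onto C57BL/6 by crossing. In such a congenic strain, a stretch of donor chromosome around the selected mutation is carried along, so neighbouring genes may come from the donor strain as well. The length of this stretch in these mice is not given in the sources used here. The effect of the mutation and of any linked donor allele therefore cannot be told apart by comparing KO with WT mice.

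The *lu* mutation is shown first, because the interval is defined by it. It is a C-to-T change that turns an arginine codon of *Zbtb16* (CGA) into a stop codon (TGA), and its place in the protein was taken from the study's description of the allele. The codon lies at chr9:48832309-48832311, in exon 2 of 7 of the transcript ENSMUST00000093852.4 (GRCm38, minus strand), and 233 of the 673 residues of the protein come before it. The Gencode reference sequence at chr9:48832264-48832356 is given 5′ to 3′ on the minus strand, with the mutated codon in capitals.

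Zbtb16: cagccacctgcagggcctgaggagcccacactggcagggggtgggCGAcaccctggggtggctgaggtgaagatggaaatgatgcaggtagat

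*Nxpe4* and *Ttc12* are the genes of the list that lay farthest apart in direction, *Nxpe4* lower and *Ttc12* higher in KO mice, and their upstream sequences are shown for that reason. Each run is the 250 bases before the RefSeq start (GRCm38.p6), 5′ to 3′ on the strand of the gene. *Nxpe4* is at chr9:48361791-48362040 on the plus strand and *Ttc12* at chr9:49486226-49486475 on the minus strand. Capitals mark 3 short motifs on either strand, so a motif may appear as its reverse complement. The first is the TATA box, searched as TATAAA. The GC box was searched as GGGCGG. The CCAAT box was searched by the letters of its name.

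Nxpe4: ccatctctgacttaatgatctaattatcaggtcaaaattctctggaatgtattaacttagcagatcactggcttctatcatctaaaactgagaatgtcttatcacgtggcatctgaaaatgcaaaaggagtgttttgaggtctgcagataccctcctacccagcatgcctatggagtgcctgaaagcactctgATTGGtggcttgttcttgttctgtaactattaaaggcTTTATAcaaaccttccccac

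Ttc12: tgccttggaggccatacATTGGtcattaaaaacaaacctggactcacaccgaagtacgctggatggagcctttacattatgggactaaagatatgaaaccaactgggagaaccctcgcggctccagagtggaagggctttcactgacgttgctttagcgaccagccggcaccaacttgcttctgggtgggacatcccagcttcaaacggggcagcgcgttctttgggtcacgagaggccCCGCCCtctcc

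The upstream sequence of *Nxpe4* held 1 match to TATAAA and 1 to CCAAT, with 1 CpG and a GC content of 40.8%. That of *Ttc12* held 1 match to GGGCGG and 1 to CCAAT, with 12 CpG and a GC content of 54.8%. Among 32851 RefSeq promoters of the same length, with chromosome 18 left out, 12.4% held TATAAA, 32.7% held GGGCGG and 33.8% held CCAAT. Their median was 6 CpG. RefSeq promoters were matched for 8 of the 10 genes. *Usp28* had the highest number of CpG among the 8, with 26, while *Nxpe4* and *Bco2* had 1 and 2. These matches describe letters and do not show that a factor binds there. The start of *Nxpe4* differs between the annotations by 200 kb, so it lies 674 kb from the start of *Zbtb16* in Gencode and 474 kb in RefSeq.

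Libraries held 31644888 to 51231439 counts in KO mice and 30220122 to 47343536 in WT mice, and 3 counts corresponded to 0.0586 to 0.0993 CPM, the counts of a gene scaled to the same total in each library. KO replicate 3 goes against its label, since 4 Y-linked genes had 1 count in all in it and 4376 to 8182 in the other libraries. It was kept under its group. Without it 54 genes of the whole table passed in place of 121, 4 of the 10 listed genes in place of 5, and 3, 4 and 4 genes within 2, 5 and 10 Mb of *Zbtb16* in place of 4, 5 and 6. Markers of excitatory neurons, interneurons, glia and vessels were present in all mice. Choroid plexus markers summed to at most 3.41 CPM, and the liver gene *Alb* to at most 0.0331 CPM. Markers of striatal medium spiny neurons summed to 230.3 to 354.0 CPM in KO mice and 186.2 to 424.5 CPM in WT mice, for 7 of the 8 listed genes. No marker gene on these lists passed the threshold between the genotypes. In bulk tissue, fewer cells of a type and less RNA per cell cannot be told apart.

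In KO mice the mutated gene itself stood at 48.4, 51.2, 41.7, 52.5 and 42.6 CPM in replicates 1 to 5, against 83.7, 89.1, 73.6, 70.5 and 78.6 CPM in WT mice. The KO mean was 59.8% of the WT mean, and the genotypes did not overlap. The log2 fold change (KO against WT) of *Zbtb16* was -0.67 with a standard error of 0.06. Reads of *Zbtb16* were thus still counted in every KO mouse, 1365 to 2184 of them, against 2529 to 4217 in WT mice.

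Of the 10 flanking genes, 5 passed the threshold of 0.05 on the adjusted p of the quasi-likelihood test of edgeR, adjusted after Benjamini and Hochberg over all 14344 tested genes. The model held genotype and 3 surrogate variables, which are weights of each mouse that capture differences not recorded in the labels, so its log2 fold changes can differ from ratios of CPM means. *Nxpe4*, *Zw10*, *Dlat* and *Phldb1* fell in KO mice and *Ttc12* rose. Across all tested genes 0.844% passed, 0.244% lower and 0.600% higher in KO mice. CPM values did not overlap between the genotypes for *Nxpe4*, *Ttc12*, *Zw10*, *Dlat* and *Bco2*, against 1.63% of all tested genes. Since the list was made with this comparison known, these shares are printed side by side and nothing is read from them. The median log2 fold change was -0.13 over the 10 genes and 0.00 over all tested genes. Nearest the threshold were *Zw10* inside it (adjusted p = 0.0337 in edgeR's test) and *Bco2* outside it (adjusted p = 0.0657 in the same edgeR test).

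**Figure D1:**
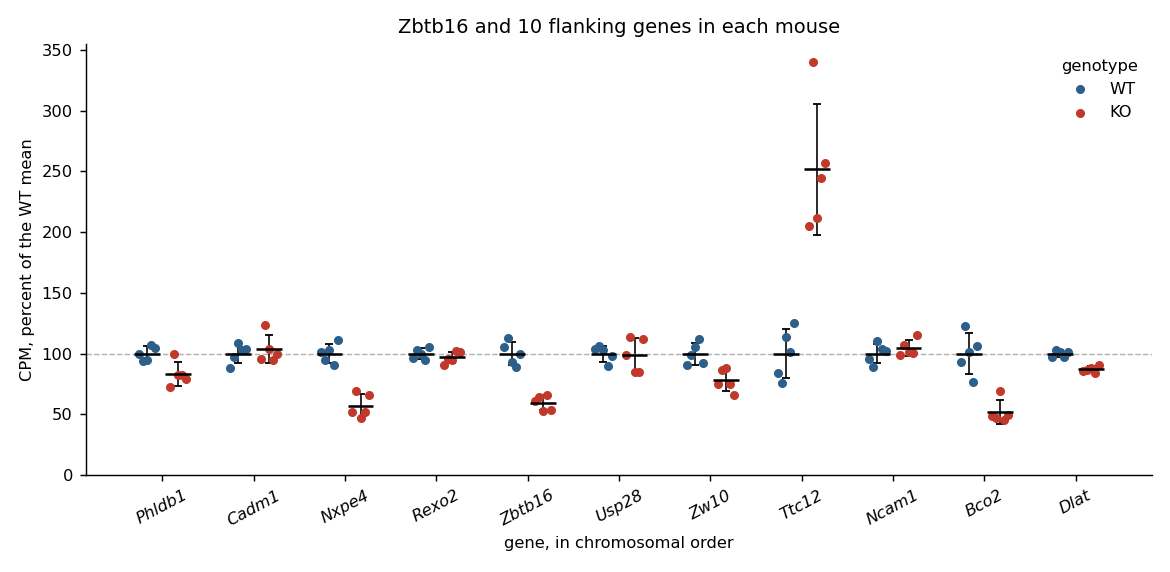
CPM of *Zbtb16* and the 10 flanking genes in each mouse, as a percent of the gene's WT mean, with genes in chromosomal order on the x axis. Points are mice (blue WT, red KO, n = 5 each), horizontal lines are group means and bars are SD. *Ttc12* in KO mice averaged 251.6% of WT, *Nxpe4* 57.2% and *Bco2* 52.1%, while *Ncam1* stood at 104.5%.

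Genes for secreted and cell-surface proteins are taken first. *Nxpe4* (ENSMUSG00000044229.9, chr9:48162023-48400025, plus strand) belongs to the family of neurexophilin and PC-esterase domain proteins, whose function in the cortex is little known. In KO mice it stood at 6.57, 8.72, 5.93, 6.51 and 8.35 CPM in replicates 1 to 5. In WT mice it stood at 12.8, 11.9, 13.0, 11.4 and 14.0 CPM. No KO mouse reached the lowest WT mouse, with the closest pair at 8.72 and 11.4 CPM. The log2 fold change of *Nxpe4* was -0.91 with a standard error of 0.10. The counts behind these values were 194 to 428 in KO mice and 387 to 565 in WT mice.

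*Ncam1* (ENSMUSG00000039542.16, chr9:49502136-49798925, minus strand) encodes the neural cell adhesion molecule, a surface protein of the immunoglobulin family that joins neurons and guides neurites. Its KO values of 216.7, 235.3, 223.0, 220.8 and 253.0 CPM overlapped with WT values of 210.8, 195.3, 242.0, 227.4 and 223.7 CPM. The log2 fold change of *Ncam1* was 0.00, with a 95% interval from -0.08 to 0.08. An antisense gene covers 4.81% of the exon length of *Ncam1*, and the share of its counts that this affects is not known.

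*Cadm1* (ENSMUSG00000032076.19, chr9:47530173-47857637, plus strand) encodes another adhesion molecule of the immunoglobulin family, found at synapses. It was expressed at 166.0, 214.2, 179.8, 164.8 and 173.1 CPM in KO mice. In WT mice its values were 152.2, 168.5, 188.3, 178.1 and 179.7 CPM. The genotypes overlapped, with KO replicate 2 above all other mice. The 95% interval of its log2 fold change ran from -0.09 to 0.07 around -0.01.

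Genes linked to cilia, the kinetochore and microtubules come next. *Ttc12* (ENSMUSG00000040219.4, chr9:49436963-49486225, minus strand) encodes a tetratricopeptide repeat protein needed to assemble the dynein arms of motile cilia. It was found at 3.15, 5.21, 3.24, 3.75 and 3.94 CPM in KO mice. Its WT values were 1.29, 1.16, 1.74, 1.55 and 1.92 CPM. Every KO mouse lay above every WT mouse, and KO replicate 2 was the highest. *Ttc12* rose with a log2 fold change of 1.17 and a standard error of 0.18. This was the only one of the 10 genes that passed in the upward direction, and the one with the lowest WT level, from 39 to 67 counts per WT mouse against 106 to 202 per KO mouse.

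*Zw10* (ENSMUSG00000032264.9, chr9:49055613-49078775, plus strand) encodes a subunit of the RZZ complex at the kinetochore and of the NRZ complex that tethers vesicles at the endoplasmic reticulum. KO mice had 14.5, 16.7, 17.1, 14.6 and 12.8 CPM. WT mice had 17.5, 19.2, 20.5, 21.7 and 17.9 CPM. The groups did not overlap, but the highest KO mouse (replicate 3, 17.1 CPM) and the lowest WT mouse (replicate 1, 17.5 CPM) lay close together. The log2 fold change of *Zw10* was -0.36 with a standard error of 0.08. Without KO replicate 3 it was -0.38 and no longer passed (adjusted p = 0.0686 in edgeR's test). Without surrogate variables it was -0.35 and did not pass either (adjusted p = 0.238 in edgeR's test). With RIN, a score of RNA integrity, in place of the surrogate variables *Zw10* did not pass (0.177 in edgeR's test). The same held for the striatal marker score in their place (0.413 in edgeR's test).

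*Phldb1* (ENSMUSG00000048537.16, chr9:44686304-44735198, minus strand) encodes a PH domain protein that helps anchor microtubules at the cell cortex. It stood at 77.0, 106.1, 88.0, 88.1 and 84.7 CPM in KO mice. In WT mice it stood at 106.3, 99.9, 100.9, 114.1 and 111.5 CPM. The genotypes overlapped through KO replicate 2 alone, since the other 4 KO mice lay below every WT mouse. *Phldb1* fell with a log2 fold change of -0.31 and a standard error of 0.05, and without surrogate variables it did not pass (-0.26, adjusted p = 0.252 in edgeR's test). Nor did it pass with RIN or the striatal marker score in their place (adjusted p = 0.195 and 0.324 in edgeR's test). The 5 oligodendrocyte markers summed to 5557, 8229, 5736, 7049 and 5629 CPM in KO replicates 1 to 5, so the lowest and the highest KO mouse were the same ones for these markers and for *Phldb1*. In WT replicates 1 to 5 these markers summed to 6707, 7055, 5768, 6327 and 7391 CPM. There the extremes did not match. The markers were lowest in replicate 3 and highest in replicate 5, and *Phldb1* was lowest in replicate 2 and highest in replicate 4. The part of these markers in the difference of *Phldb1* was not tested.

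The mitochondrial genes differed among themselves. *Dlat* (ENSMUSG00000000168.9, chr9:50634633-50659780, minus strand) encodes the E2 subunit of the pyruvate dehydrogenase complex, which turns pyruvate into acetyl-CoA. Its KO values were 95.4, 95.9, 97.6, 93.6 and 100.9 CPM. Its WT values were 108.5, 114.1, 112.6, 107.7 and 112.8 CPM. The change was small but the mice of each genotype were close together, with a coefficient of variation of 2.87% in KO and 2.57% in WT mice. The medians over all tested genes were 8.87% and 7.63%, but these include genes with few counts. Of 2 genes with higher CPM than *Dlat*, *Idh3a* had 3.06% and 2.65%, and *Ncam1* had 6.41% and 8.03%. *Dlat* fell to 87.0% of the WT mean, with a log2 fold change of -0.20 and a standard error of 0.04.

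*Bco2* (ENSMUSG00000032066.9, chr9:50533087-50555181, minus strand) encodes a mitochondrial oxygenase that cleaves carotenoids. It had 1.64, 1.58, 2.32, 1.52 and 1.66 CPM in KO mice, from 50 to 85 counts. In WT mice it had 3.11, 4.12, 3.40, 2.58 and 3.56 CPM, from 93 to 195 counts. No KO value reached a WT value, yet *Bco2* did not pass the threshold, with a log2 fold change of -0.87 and a standard error of 0.21. Its 95% interval ran from -1.32 to -0.43. Without surrogate variables its log2 fold change was -0.94 and it passed narrowly (adjusted p = 0.0484 in edgeR's test). Without KO replicate 3, its highest KO mouse, the value was -1.03 and did not pass (adjusted p = 0.0583 in edgeR's test). An antisense gene overlaps 7.60% of its exon length.

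*Rexo2* (ENSMUSG00000032026.7, chr9:48468512-48480623, minus strand) encodes the exonuclease that degrades short RNAs in mitochondria. KO mice had 48.0, 50.7, 50.0, 54.0 and 53.5 CPM, and WT mice had 51.2, 54.5, 52.6, 50.2 and 55.8 CPM. The groups overlapped, and the 95% interval of the log2 fold change of *Rexo2* was -0.14 to 0.05.

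*Usp28* (ENSMUSG00000032267.8, chr9:48985375-49042517, plus strand) encodes a ubiquitin peptidase that removes ubiquitin from proteins such as Myc. It is the listed gene nearest to *Zbtb16*, with a start 149 kb away. KO mice had 30.8, 35.5, 26.5, 26.5 and 34.9 CPM, and WT mice had 32.3, 33.0, 32.1, 27.9 and 30.5 CPM. KO values lay both above and below the WT range. The log2 fold change of *Usp28* was -0.06, with a 95% interval from -0.24 to 0.12, which is wider than those of *Rexo2*, *Ncam1* and *Cadm1*.

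Listed genes that lie close together did not always share a call. *Usp28* and *Zw10* are 13.1 kb apart, and *Zw10* passed while *Usp28* did not. *Ttc12* and *Ncam1* are 15.9 kb apart, and *Ttc12* passed while *Ncam1* did not. *Bco2* and *Dlat* are 79.5 kb apart and both had negative log2 fold changes, of -0.87 and -0.20. The differences between neighbours were not tested. On the lower side of *Zbtb16*, *Rexo2* lies between it and *Nxpe4*, and *Cadm1* lies beyond *Nxpe4*.

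**Figure D2:**
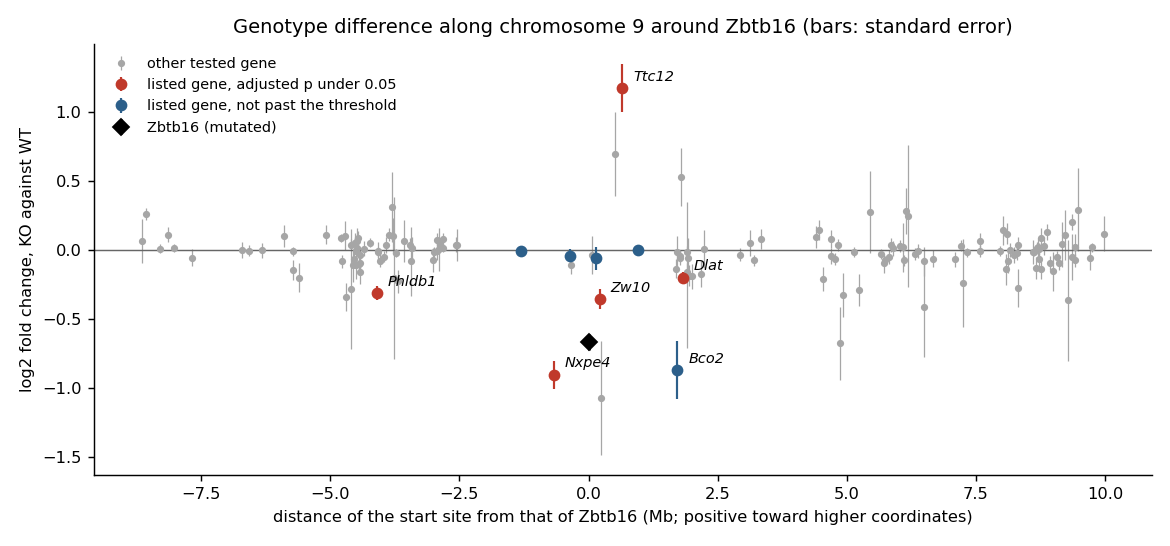
Log2 fold change (KO against WT) of tested genes on chromosome 9 against the distance of their start from that of *Zbtb16*, from -10 to 10 Mb, with standard error bars. Red points are listed genes that passed the threshold, blue points listed genes that did not, grey points the 151 other tested genes and the black diamond *Zbtb16*. *Ttc12* is at 1.17, *Nxpe4* at -0.91 and *Bco2* at -0.87, while most grey points lie near 0.

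The neighbours that are not on the list were counted in the same fit. Within 2 Mb of *Zbtb16* 23 genes were tested and 4 passed, all of them listed genes, so 0 of the 14 others passed. Within 5 Mb 5 of 86 tested genes passed, again all of them listed, and within 10 Mb 6 of 161. Of the 151 unlisted genes within 10 Mb 1 passed, or 0.662%, against 0.844% of all tested genes. That gene was *Scn3b*, a beta subunit of voltage-gated sodium channels, 8.57 Mb away. Its log2 fold change was 0.26 with a standard error of 0.05. Without KO replicate 3 *Scn3b* was at 0.23 and did not pass (adjusted p = 0.0682 in edgeR's test), nor did it without KO replicate 4, WT replicate 4 or WT replicate 5 (0.0555, 0.0546 and 0.0636 in the same edgeR test). By distance, 3 of 10 tested genes passed from 0 to 1 Mb, 1 of 13 from 1 to 2 Mb, 1 of 63 from 2 to 5 Mb and 1 of 75 from 5 to 10 Mb. From 10 to 20 Mb 0 of 122 passed, and on other chromosomes 110 of 13027 passed, or 0.844%. The median size of the log2 fold change, regardless of sign, was 0.233 from 0 to 1 Mb, 0.137 from 1 to 2 Mb and 0.0722 from 2 to 5 Mb, against 0.0617 on other chromosomes. Over the 14 unlisted genes within 2 Mb it was 0.123, and for 0 of them the CPM did not overlap between the genotypes. Their standard errors ran from 0.04 for *Dixdc1* to 0.53 for *Hspb2*. A size taken without its sign is larger where the error is larger, so 0.123 does not by itself show a genotype difference. The listed genes make up 6 of the 10 genes tested from 0 to 1 Mb, so the figures near *Zbtb16* rest largely on them.

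**Figure D3:**
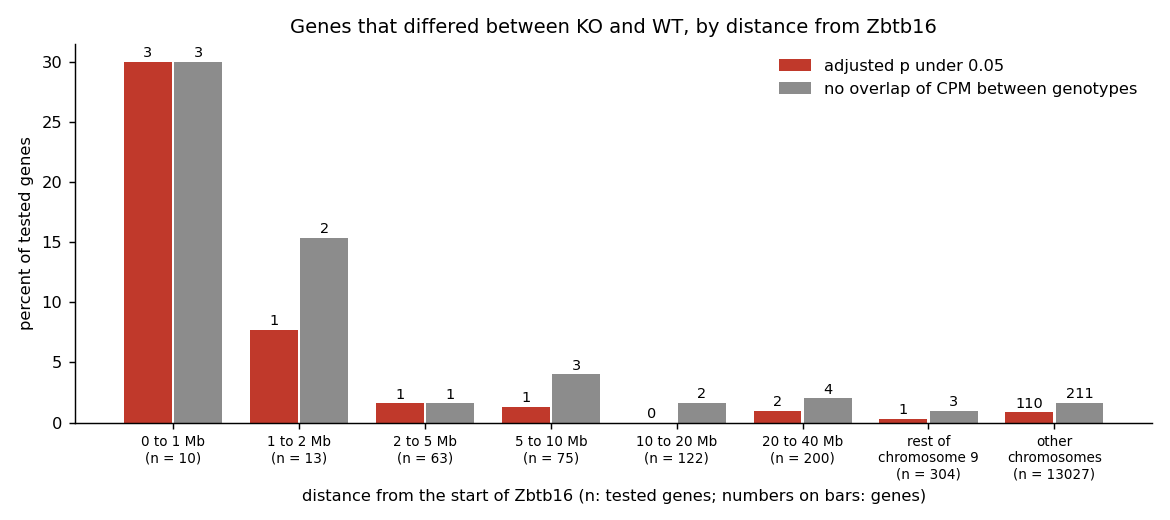
Percent of tested genes that differed between KO and WT mice, by distance from the start of *Zbtb16* (*Zbtb16* left out), with the number of tested genes under each bin and the number of genes on each bar. Red bars are genes with an adjusted p under 0.05 and grey bars genes whose CPM did not overlap. Both were 30.0% from 0 to 1 Mb, and 0.844% and 1.62% on other chromosomes.

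Close neighbours of *Zbtb16* outside the list showed no passing change. *Htr3a*, the nearest tested gene above *Zbtb16* and a serotonin receptor subunit, had a log2 fold change of -0.04, and *Rbm7*, the nearest below, had -0.11. *Drd2*, the dopamine receptor gene between *Zw10* and *Ttc12*, ranged from 1.14 to 6.99 CPM in KO mice and from 0.702 to 9.36 CPM in WT mice. Its medians were 5.15 CPM in KO and 1.44 CPM in WT mice. The log2 fold change of *Drd2* was 0.69 with a standard error of 0.30, and it did not pass (adjusted p = 0.421 in edgeR's test). In fits that left out 1 mouse it lay between 0.32 and 1.69. With the striatal marker score in place of the surrogate variables it was 0.33. It passed in none of these fits. The mouse with the highest *Drd2*, WT replicate 5, also had the highest sum of striatal markers, 424.5 CPM. *Drd2* is itself part of that sum, with 9.36 CPM of it, and the next highest sum was 354.0 CPM, in KO replicate 5. *Ankk1*, next to *Ttc12*, had at most 4 counts in a mouse and was not tested. *Tmprss5*, named after its value was seen, had a log2 fold change of -1.08 with a standard error of 0.41 and did not pass. Genes within 10 Mb whose CPM did not overlap without passing were *Ube4a* (0.11), *Edc3* (0.13) and *Idh3a* (-0.08), with their log2 fold changes in parentheses, besides *Bco2*.

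Levels of the 10 genes were compared per kb of exon, as CPM per kb in WT mice (mean ± SD, n = 5). *Ncam1* was at 25.4 ± 2.04 and *Dlat* at 22.7 ± 0.585, and their WT ranges overlapped. *Cadm1* at 16.6 ± 1.32, *Rexo2* at 15.6 ± 0.677 and *Phldb1* at 14.8 ± 0.876 overlapped with each other and with *Zbtb16* at 15.0 ± 1.42. Below these came *Usp28* at 5.34 ± 0.347 and *Zw10* at 5.06 ± 0.456, which also overlapped in WT mice. In KO mice they no longer did, at 4.55 to 6.09 for *Usp28* and 3.34 to 4.48 for *Zw10*. *Nxpe4* at 2.14 ± 0.171 and *Bco2* at 1.58 ± 0.268 touched at the edge of their ranges, and *Ttc12* at 0.338 ± 0.0690 lay below all others. In KO mice *Ttc12* stood at 0.849 ± 0.182, beside *Bco2* at 0.824 ± 0.154.

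**Figure D4:**
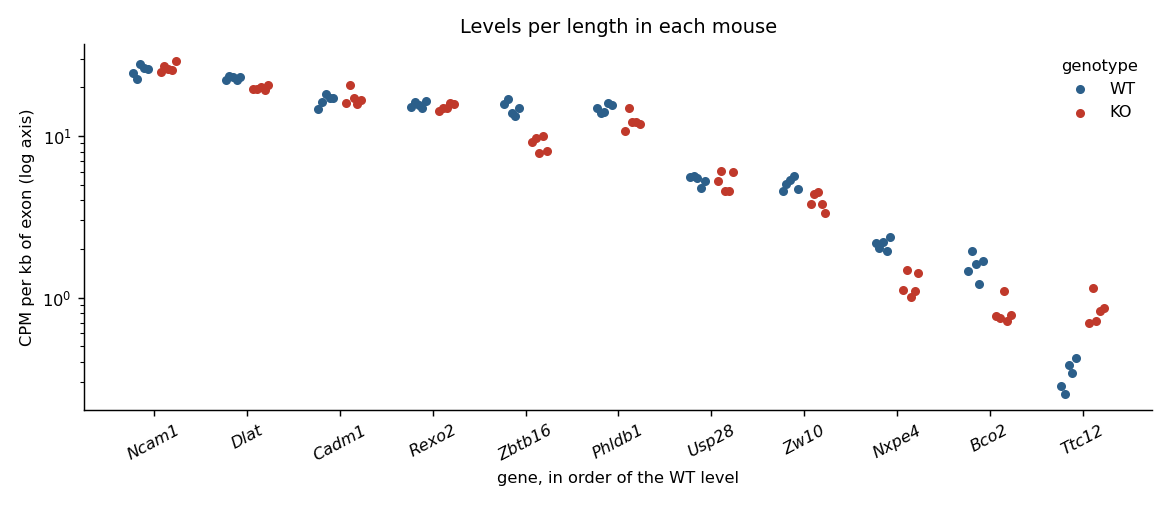
CPM per kb of exon (log axis) of *Zbtb16* and the 10 flanking genes in each mouse, in order of the WT mean. Points are mice (blue WT, red KO, n = 5 each). WT means run from 25.4 for *Ncam1* to 0.338 for *Ttc12*, and KO values of *Ttc12* lie beside those of *Bco2*.

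Genes that work with the listed ones, and lie elsewhere in the genome or along the chromosome, were counted as 9 lists of partners. Of 68 partners 60 were tested, and 1 passed, *Pdk4*, against 0.844% of all tested genes. *Pdk4*, on chromosome 6, encodes a kinase that switches off pyruvate dehydrogenase. It rose to 15.3 ± 1.94 CPM in KO mice from 9.25 ± 1.76 CPM in WT mice (SD, n = 5 each). Its log2 fold change was 0.81. The other 9 tested partners of *Dlat* did not pass, and the median log2 fold change over the 10 was 0.00. *Dld*, the E3 subunit of the complex, did not overlap between the genotypes, with 128.2 ± 2.92 CPM in KO and 136.4 ± 5.83 CPM in WT mice (SD, n = 5 each) and a log2 fold change of -0.06.

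None of the partners of the other 9 genes passed. There were 9 tested partners of *Zw10* (median log2 fold change 0.02), 8 of *Ttc12* (0.04), 7 of *Phldb1* (0.00), 6 of *Bco2* (0.02), 6 of *Rexo2* (-0.01), 5 of *Usp28* (-0.02) and 8 adhesion genes beside *Ncam1* and *Cadm1* (-0.01). *Nxpe3* was the tested relative of *Nxpe4*, with a log2 fold change of -0.08. *Rpe65*, a retinoid isomerase on the list of *Bco2*, did not overlap between the genotypes at 0.429 ± 0.186 CPM in KO and 1.61 ± 0.835 CPM in WT mice (SD, n = 5 each), and did not pass (log2 fold change -1.56).

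The log2 fold changes of the 10 genes were computed in 22 other fits. *Nxpe4* stayed between -0.96 and -0.74 and *Ttc12* between 0.81 and 1.48 on the log2 scale, and both passed in each of the 10 fits that left out 1 mouse. *Phldb1* passed in 9 of these 10, *Zw10* and *Dlat* in 6 each, and *Bco2* in 0. Of the 12 other fits, *Nxpe4* and *Ttc12* passed in 9 each, *Dlat* in 5, and *Zw10*, *Phldb1* and *Bco2* in 3 each. *Nxpe4*, *Ttc12*, *Zw10*, *Dlat*, *Bco2*, *Phldb1* and *Rexo2* kept their sign in all 22 fits, whereas *Usp28*, *Ncam1* and *Cadm1* did not. Without KO replicate 1 *Zw10*, *Dlat* and *Phldb1* did not pass, which left 2 of the 10 genes, and without WT replicate 3 *Zw10* and *Dlat* did not, which left 3. *Zw10* also missed the threshold without KO replicate 3 or WT replicate 4, and *Dlat* without KO replicate 4 or WT replicate 5. With a linear model on log2(CPM + 1) and the same surrogate variables, 0 of the 10 genes passed, *Zbtb16* did not pass either, and 2 of all tested genes passed.

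**Figure D5:**
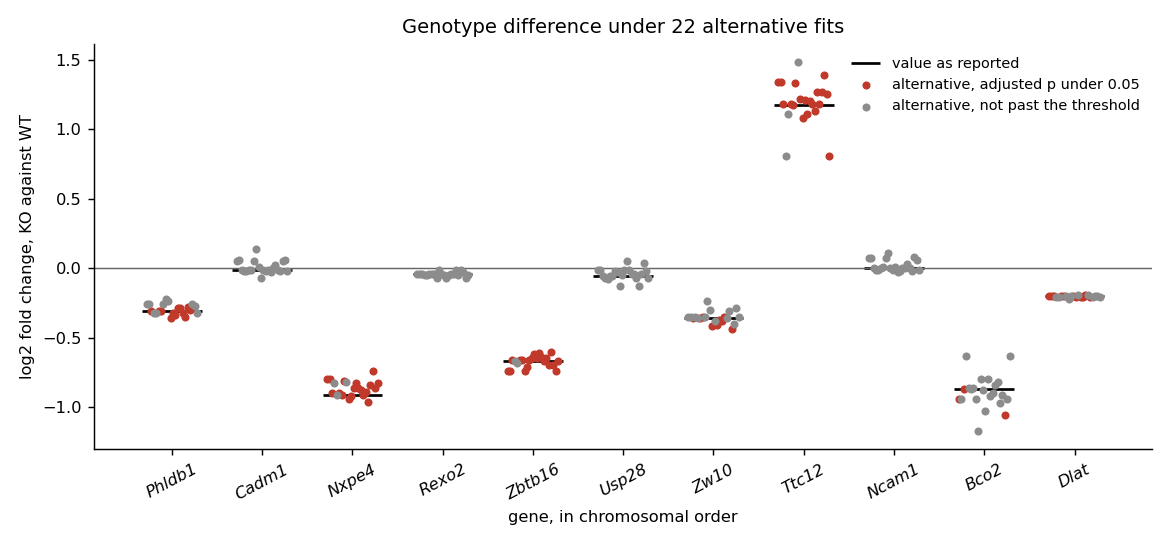
Log2 fold change (KO against WT) of *Zbtb16* and the 10 flanking genes under 22 alternative fits, with genes in chromosomal order. Black lines are the values as reported, red points fits in which the gene passed the threshold and grey points fits in which it did not. *Ttc12* lies between 0.81 and 1.48 and *Nxpe4* between -0.96 and -0.74 in all of them, and *Ncam1* lies on both sides of 0.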

How the data were processed

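The authors aligned the reads of TruSeq Stranded mRNA libraries to mm10 with STAR 2.7.1a and used HTSeq 0.9.1 to count uniquely mapped reads per protein-coding gene (exons, Gencode M21). The deposited values are these raw counts of 22000 genes in 10 libraries. The strand setting is not given in the sources used here. CPM were computed from the counts.

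Genotypes were compared with edgeR 4.0.16 (R 4.3.3; quasi-likelihood test, TMM, filterByExpr with 14344 genes kept, Benjamini-Hochberg adjustment over all of them, threshold 0.05) on genotype and 3 surrogate variables from sva 3.50.0, as the study's methods include such variables. The number of surrogate variables was sva's default. Intervals are 95% and use edgeR's degrees of freedom. Positions came from Gencode M21 (90.3% of names matched). Sequences came from Gencode transcripts and RefSeq promoters. No pair of libraries agreed within sampling noise (chi-square per degree of freedom 5.69 to 29.97). P-values set the genotype difference against the spread between mice that remains after the surrogate variables, where the fit holds them. Floors cover counting error only. The scripts were tested on simulated counts.

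The 10 genes, the partner and marker lists and the naming rule (listed genes, nearest neighbours, *Drd2*, *Ankk1*, and genes within 10 Mb that passed or did not overlap) were chosen with earlier results of these data known. Alternatives covered surrogate variables, RIN, DESeq2 1.42.0, linear models with pseudocounts of 1 and 0.1, size factors, no filter, a replicate block, mice with a RIN of 9.5 or above and each mouse left out. A striatal score as covariate, limma 3.58.1 with moderated variances, and KO replicate 3 left out without surrogate variables were chosen after seeing the data. RIN, the striatal score and the replicate block each took the place of the surrogate variables. The fit of mice with higher RIN held no surrogate variables. Python 3.11.15, pandas 2.3.3, numpy 2.4.6 and matplotlib 3.10.9 were used.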

Additional observations from a re-analysis of the deposited data

Results flagged for a closer look

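Single mice lay far from the rest of their group in 4 of 36 groups of 5 mice examined with Dixon's test, where chance alone marks about 1 in 20 groups. *Bco2* had 2.32 CPM in KO replicate 3 and 1.52 to 1.66 CPM in the other KO mice. *Ube4a* had 91.6 CPM in the same KO replicate 3 and 83.1 to 83.7 CPM in the other KO mice. *Drd2* had 9.36 CPM in WT replicate 5 and 0.702 to 1.89 CPM in the other WT mice. *Htr3a* had 6.24 CPM in WT replicate 3 and 4.65 to 4.91 CPM in the other WT mice.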

How the results depend on the processing

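The 121 genes that passed over the whole table became 30 without surrogate variables and 38 with RIN as covariate in their place. They became 233 with DESeq2 and 2 with either linear model. In mice with a RIN of 9.5 or above, 3 per genotype and fitted without surrogate variables, 1 gene passed. Leaving out each mouse gave 39 to 248 genes in all, 2 to 5 of the 10 listed genes, and 2 to 4, 2 to 6 and 3 to 7 genes within 2, 5 and 10 Mb. Against 5 listed genes, 4 passed without surrogate variables and 3 with RIN in their place. With either linear model 0 passed, and 0 in the smaller set of mice with higher RIN. Against 4, 5 and 6 genes within 2, 5 and 10 Mb, 3 passed within 5 Mb with RIN, and 0 at each distance with the linear models and in the mice with higher RIN. Of the settings chosen after seeing the data, KO replicate 3 left out without surrogate variables gave 13 genes, of them 3 listed and 3 within 5 and 10 Mb. The striatal score in place of the surrogate variables gave 14 genes and limma with moderated variances 6. Both gave 2 listed genes and 2 within each distance. Why the counts moved was not tested.

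The replicate block, without surrogate variables, gave 24 genes, 2 listed genes (*Nxpe4* and *Ttc12*), and 2, 2 and 3 genes within 2, 5 and 10 Mb. Same-numbered mice are different animals, their deviations correlated by 0.171, -0.002, 0.116, -0.107 and 0.096 for replicates 1 to 5, and the numbers were not taken as pairs.

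Signs turned only for genes whose log2 fold change did not pass in any fit. *Usp28* (-0.13 to 0.05), *Ncam1* (-0.03 to 0.03), *Cadm1* (-0.07 to 0.02) and *Htr3a* (-0.10 to 0.08) turned among the fits that left out a mouse. *Usp28* was at 0.04 and *Htr3a* at 0.22 without KO replicate 3 and without surrogate variables. *Ncam1* was at -0.01 in the linear and the limma models. *Cadm1* was at 0.05 without surrogate variables, with the replicate block and without both KO replicate 3 and surrogate variables, at 0.06 with RIN and with the striatal score, and at 0.14 in mice with higher RIN. *Htr3a* was at 0.14 without surrogate variables and with RIN, 0.12 with the block, 0.20 in mice with higher RIN and 0.08 with the striatal score. *Drd2* was at -0.02 in mice with higher RIN. Of 396 single-gene values, 312 kept their direction and side of the threshold, 52 lost the threshold, 3 gained it and 29 turned. *Ttc12* and *Bco2* rest on few counts, so small changes in them are not detectable at this depth.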
